A study of Mus musculus with 8 samples.

Results

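The Gimap genes encode GTPases of immunity-associated proteins, a family of GTP-binding proteins that sit on intracellular membranes of lymphocytes and act in their survival. The 8 genes described here, Gimap1 and Gimap3 to Gimap9, are all rows of the deposited count table with these names, out of 56748 rows. They were taken by name, and the family was chosen with earlier results of these data known. They were measured by poly(A) RNA sequencing of blood mononuclear cells, isolated on a density gradient, from wild-type male C57BL/6J mice. Mice were given fucoidan, a sulphated polysaccharide from the brown seaweed Undaria pinnatifida, at 200 mg per kg by daily gavage for 1 month from 8 weeks of age (3 libraries), or saline on the same schedule (5 libraries). Both groups ate a standard basal diet, and each library is titled as a biological replicate.

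Family members share a GTP-binding domain of the AIG1 type, and several carry a tail that anchors them in membranes of lysosomes, the endoplasmic reticulum, mitochondria or lipid droplets. Naive T cells express them strongly, and B cells, natural killer cells and endothelial cells express some of them. Loss of Gimap5 in mice and rats depletes peripheral T cells, and loss of Gimap1 in mice depletes mature T and B cells.

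In the count table (genome build GRCm39) the 8 genes lie in a single cluster on chromosome 6 between 48624168 and 48747785, a span of 123.6 kb. From the low end they run Gimap8, Gimap9, Gimap4, Gimap6, Gimap7, Gimap1, Gimap5 and Gimap3. Gimap6 (ENSMUSG00000047867, 48678516 to 48685159) and Gimap3 (ENSMUSG00000039264, 48741398 to 48747785) are on the minus strand, and the other 6 are on the plus strand. There are 5 other annotated genes within the span. One of these, Gm28053, overlaps Gimap7, Gimap1 and Gimap5 on their own strand, and Gimap1os overlaps Gimap1 on the opposite strand. Reads of overlapping genes cannot all be kept apart, but Gm28053 and Gimap1os had 378 and 940 counts over all libraries, against 8262 for Gimap7, 22316 for Gimap1 and 7373 for Gimap5.

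Promoter windows are shown for 4 members, Gimap3 and Gimap4 because they were the most abundant per length, and Gimap6 and Gimap9 because their estimates lay at the low and high ends of the family. Each is the 250 bases before the RefSeq start site in build GRCm38.p6, 5′ to 3′ on the gene's strand, with capitals marking matches on either strand to the 5 motifs spelled out after the sequences.
Gimap3 (chr6:48770852-48771101, minus strand): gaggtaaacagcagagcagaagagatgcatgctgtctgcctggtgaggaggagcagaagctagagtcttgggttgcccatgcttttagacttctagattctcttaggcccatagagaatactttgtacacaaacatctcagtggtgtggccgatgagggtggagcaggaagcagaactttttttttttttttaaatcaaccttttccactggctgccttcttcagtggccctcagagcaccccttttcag
Gimap4 (chr6:48684328-48684577, plus strand): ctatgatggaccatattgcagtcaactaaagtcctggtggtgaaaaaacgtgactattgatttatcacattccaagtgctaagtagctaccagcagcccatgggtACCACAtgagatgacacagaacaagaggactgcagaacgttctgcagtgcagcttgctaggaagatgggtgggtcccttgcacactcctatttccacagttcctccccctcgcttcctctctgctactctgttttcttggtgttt
Gimap6 (chr6:48708245-48708494, minus strand): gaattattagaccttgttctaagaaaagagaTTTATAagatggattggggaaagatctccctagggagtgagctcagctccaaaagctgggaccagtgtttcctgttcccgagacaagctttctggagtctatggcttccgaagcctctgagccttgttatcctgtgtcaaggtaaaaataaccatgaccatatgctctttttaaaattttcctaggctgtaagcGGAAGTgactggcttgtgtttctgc
Gimap9 (chr6:48675885-48676134, plus strand): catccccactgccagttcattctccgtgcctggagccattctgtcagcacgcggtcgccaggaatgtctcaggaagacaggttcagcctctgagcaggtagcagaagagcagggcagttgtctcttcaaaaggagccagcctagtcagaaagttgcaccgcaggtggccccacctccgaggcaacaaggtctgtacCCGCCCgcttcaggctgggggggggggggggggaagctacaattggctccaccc

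All 8 members had such a window and Gimap8 had a pair of them, 9 in all. The ETS-type core GGAAGT occurred in 2 of the 9 windows, those of Gimap5 and Gimap6, and in 19.7% of all 32851 promoter windows of this length in the RefSeq table. The RUNX-type core TGTGGT occurred in 3 (Gimap1, Gimap4 and Gimap7), against 14.0% of all windows. The GC box GGGCGG occurred in 2 (Gimap7 and Gimap9), against 32.7%, the TATA box TATAAA in 1 (Gimap6), against 12.4%, and the GATA-type core AGATAA in 0, against 9.99%. None of these motifs overlapped another in the members' windows. No motif of the 5 was in more than 3 of the windows, the Gimap3 window held none, and these matches describe letters and not binding. The windows also differed in composition, from 43.6% G and C in Gimap6 to 61.2% in Gimap9, where the median of all windows was 52.4%.

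Compared per length, the family spanned a wide range of levels. On the scale of CPM (counts scaled to library size with TMM factors) per kilobase of the table's gene length, Gimap3 stood at 199.9 ± 19.5 (SD, n = 5) and Gimap4 at 197 ± 32.2 (SD, n = 5) after saline, followed by Gimap6 at 149 ± 9.56, Gimap1 at 59.9 ± 9.14, Gimap8 at 58.6 ± 6.75, Gimap9 at 32.4 ± 9.86, Gimap7 at 27.0 ± 6.56 and Gimap5 at 14.4 ± 1.41. Saline ranges overlapped between Gimap3 and Gimap4, between Gimap1 and Gimap8 and between Gimap9 and Gimap7, so the order within each of these pairs is not set. The other steps of the order held in 8 of 8 libraries. The group means after fucoidan had the same order except within the pair at the top, with Gimap4 at 224 ± 16.7 (SD, n = 3) and Gimap3 at 219 ± 8.70 (SD, n = 3).

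**Figure D1:**
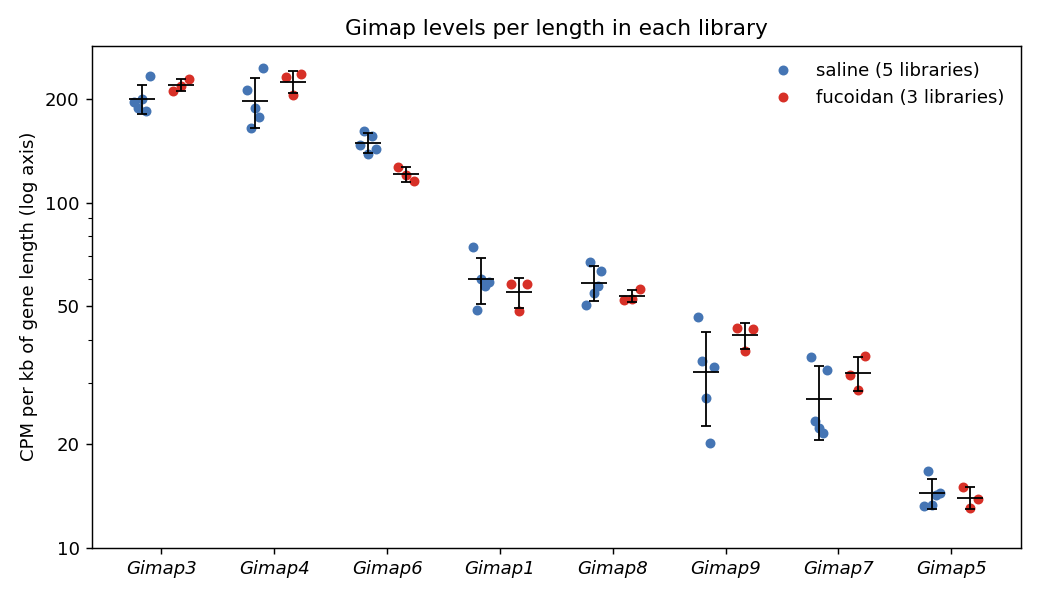
Level of each Gimap gene in CPM per kb of gene length (log axis) in every library, saline in blue and fucoidan in red, with black bars at the mean ± SD. Gimap3, Gimap4 and Gimap6 lie above 100 in every library and Gimap5 below 20, and only for Gimap6 do the red points all lie below the blue ones.

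The comparison of fucoidan with saline asks whether the supplement alters the transcriptome of circulating immune cells. No member of the Gimap family passed at an adjusted p under 0.05 (edgeR, quasi-likelihood), while 13.8% of the 14723 genes tested did (9.11% higher and 4.65% lower). All 8 members passed the filter on low counts. At an unadjusted p under 0.05 there was 1 member, Gimap6, beside 28.0% of all genes. DESeq2, limma-voom and edgeR with upper quartile factors each called 1 member, again Gimap6, as lower, beside 5.93%, 7.22% and 6.72% of all genes that they called lower. Summed over the family, the level was 1974 ± 120.0 CPM (SD, n = 5) after saline, between 1873 and 2156 CPM, and 1964 ± 72.9 CPM (SD, n = 3) after fucoidan, between 1882 and 2022 CPM. The median log2 fold change was 0.04 over the members and -0.04 over all genes tested. Log2 estimates of the members ran from -0.30 for Gimap6 to 0.35 for Gimap9, with 4 below 0 and 4 above.

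Libraries of both groups held between 13061703 and 16334932 counts. Haemoglobin transcripts took 3.51 to 8.48% of them after saline and 13.5 to 24.1% after fucoidan, and 13 of 14 erythroid and 13 of 13 platelet markers rose, with a median log2 fold change of 2.27 and 1.58 (7 and 8 markers with no filter on low counts). Beside this, the family's unscaled share of all counts was 0.141 to 0.182% after fucoidan and 0.192 to 0.251% after saline, without overlap, while the scaled sums overlapped. How much of the difference in share the haemoglobin counts made up was not tested. In a bulk preparation, fewer cells of a type and less RNA per cell cannot be told apart, for these genes as for the markers described below.

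Gimap6, which in human and mouse cells binds the autophagy protein GABARAPL2, came nearest to a change. It stood at 513, 565, 483, 544 and 499 CPM in saline replicates 1 to 5 and at 444, 419 and 404 CPM in fucoidan replicates 1 to 3. Every fucoidan library lay below every saline library, as was so for 11.0% of all genes tested (22.6% had no overlap in either direction). The fold change was 0.811 with a 95% interval of 0.693 to 0.948 (log2 -0.30, SE 0.103), and the adjusted p of edgeR's quasi-likelihood test was 0.0756. Over the alternatives tried the adjusted p ran from 0.0179 with DESeq2 to 0.229 without fucoidan replicate 3. It was 0.0370 with limma-voom and 0.0417 with upper quartile factors, and 0.159 when a replicate block was fitted. Under that block saline replicates 4 and 5, which share no number with a fucoidan library, do not inform the group difference. The Gimap6 estimate stayed between -0.35 and -0.26.

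Gimap3, a mitochondrial and endoplasmic reticulum relative of Gimap5 in the mouse, was the member with most counts. It stood at 504, 483, 515, 474 and 600.3 CPM after saline and at 541, 562 and 586 CPM after fucoidan, so that saline replicate 5 lay above all others and the groups overlapped. Its fold change was 1.09 with a 95% interval of 0.924 to 1.29 (edgeR adjusted p = 0.495). Gimap4, a GTPase that speeds the death of T cells once apoptosis has begun, stood at 388, 301, 344, 325 and 451 CPM and at 424, 377 and 434 CPM. Its fold change was 1.14, with an interval of 0.922 to 1.40 and an edgeR adjusted p of 0.421. Saline replicate 5 lay above all fucoidan libraries and saline replicate 1 among them for Gimap4.

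Gimap1 and Gimap5, the members that mature lymphocytes are known to need, did not pass the test. Gimap1 (ENSMUSG00000090019, 48715988 to 48720729) stood at 228, 150.2, 185, 176 and 180.5 CPM after saline and at 178, 149 and 179 CPM after fucoidan, a fold change of 0.917 with an interval of 0.747 to 1.13. Gimap5 (ENSMUSG00000043505, 48723131 to 48731144) stood at 54.8, 69.2, 55.1, 59.0 and 59.6 CPM and at 62.3, 54.1 and 57.3 CPM. In both genes fucoidan replicate 2 lay just under the lowest saline library and the other fucoidan libraries lay inside the saline range. Gimap5 had the estimate closest to no change, a fold change of 0.973 with an interval of 0.829 to 1.14 (edgeR adjusted p = 0.852). The mouse Gimap3 and Gimap5 transcripts share part of their sequence: 190 of the 2528 words of 50 bases in Gimap3 transcripts of GENCODE M21 also occur in Gimap5, where they make up 4.53% of words. No word of that length was shared between any other pair of members. By exact words of this length, Gimap3 and Gimap5 are therefore the pair of members whose reads the counting could have split. Shorter or inexact matches were not examined. The overlap of Gimap1, Gimap5 and Gimap7 with Gm28053 stands apart from this.

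Gimap8, a large member with repeated GTP-binding domains, stood at 186, 249, 203, 212 and 235 CPM after saline and at 193, 194 and 207 CPM after fucoidan. Its fold change was 0.914 with an interval of 0.769 to 1.09 (edgeR adjusted p = 0.502), and the fucoidan values all lay inside the saline range. Gimap7, whose human counterpart forms dimers that hydrolyse GTP, stood at 82.7, 54.3, 51.5, 50.1 and 75.9 CPM and at 73.5, 66.6 and 83.6 CPM. Gimap9 stood at 76.6, 57.0, 44.5, 33.0 and 54.7 CPM and at 71.2, 60.9 and 70.7 CPM. Both were high in saline replicate 1 and low in saline replicate 4, so their intervals were the widest of the family, 0.906 to 1.55 for Gimap7 and 0.921 to 1.76 for Gimap9. These intervals span both no change and a rise of 1.55-fold or 1.76-fold. Their edgeR adjusted p-values were 0.405 and 0.319.

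Profiles of the members differed from library to library. The root mean square difference between the log2 CPM profiles of a pair of members, each centred on its own mean over the 8 libraries, was smallest for Gimap5 and Gimap8 (0.0920) and for Gimap3 and Gimap4 (0.110). It was largest for Gimap6 and Gimap9 (0.479), the least alike of the 28 pairs. Against the family's mean profile, Gimap3 lay nearest (0.101) and Gimap9 farthest (0.295). Gimap9 spanned -0.78 in saline replicate 4 to 0.43 in saline replicate 1, a spread within saline that exceeded its difference between the groups. These distances describe 8 libraries and carry no test.

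**Figure D2:**
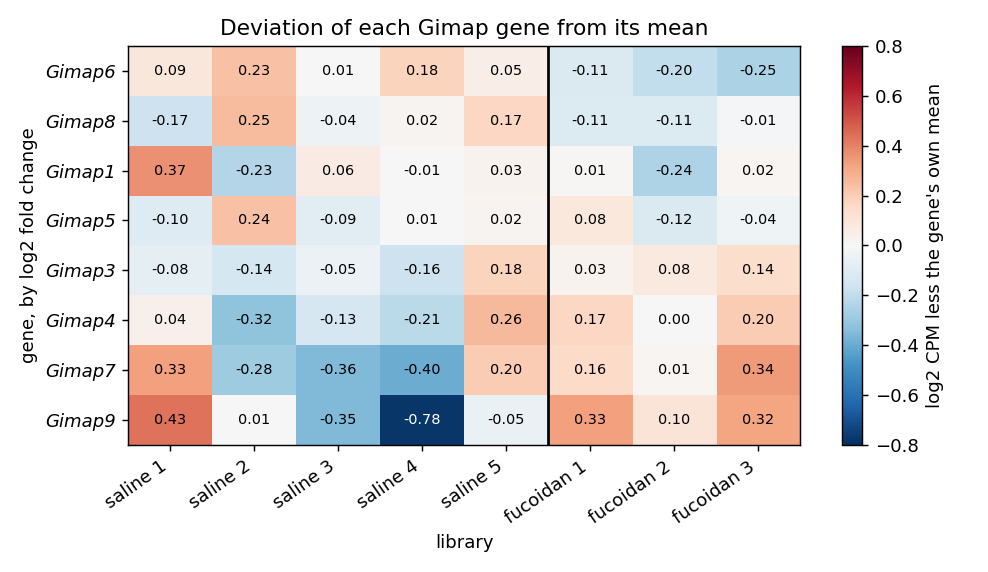
Log2 CPM of each Gimap gene less its own mean over the 8 libraries, with saline to the left of the black line and fucoidan to the right, and genes ordered by fold change. The Gimap6 row is above 0 in all saline and below 0 in all fucoidan libraries, whereas Gimap7 and Gimap9 vary most within saline, from -0.78 to 0.43 for Gimap9.

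Shares and ratios within the family restate the Gimap6 counts given above and are not a separate result. In CPM, 22.6% of all genes tested had no overlap between the groups. No such background was worked out for shares or ratios. Per length, Gimap6 made up 17.3 to 23.0% of family transcripts after saline and 14.7 to 16.6% after fucoidan, without overlap, while Gimap3, Gimap4 and the other 5 members overlapped. Gimap3 made up 27.1 ± 1.31% (SD, n = 5) and 28.8 ± 1.42% (SD, n = 3), and Gimap4 26.6 ± 2.36% and 29.5 ± 0.973%. The ratio of Gimap6 to Gimap3 counts, which no scaling of libraries can alter, was 0.832 to 1.17 after saline and 0.689 to 0.820 after fucoidan. The ratio of Gimap6 to Gimap5 was also lower in all fucoidan libraries, at 7.05 to 7.74 against 8.16 to 9.36, whereas its ratios to the other 5 members overlapped between the groups, for example 1.95 to 2.30 against 2.13 to 2.76 over Gimap8. In the fit with libraries scaled on the family's own mean, Gimap6 had a log2 fold change of -0.36 (95% interval -0.68 to -0.04, edgeR adjusted p = 0.141) and Gimap9 of 0.31 (adjusted p = 0.267). No member passed that test, which 10.7% of all genes did (7.46% higher and 3.24% lower), and at an unadjusted p under 0.05 there was again 1, Gimap6, beside 25.8% of all genes.

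Markers of the lymphocytes that express the family did not all move one way. Among the 19 shared T cell markers there were 6 that rose and 0 that fell (median log2 fold change 0.46). Lck, the kinase that starts T cell receptor signalling, went from 170 ± 15.01 (SD, n = 5) to 256 ± 37.4 CPM (SD, n = 3), the signalling adaptor Lat from 93.8 ± 5.62 to 147 ± 41.0 CPM, and Ubash3a, a restraint on receptor signalling, from 28.5 ± 4.64 to 42.4 ± 1.11 CPM. The number that rose was 10 with DESeq2 and with limma-voom, 9 without saline replicate 2, 4 with the replicate block, and 4, 3, 3, 4 and 2 without saline replicate 4, saline replicate 3, fucoidan replicate 1, fucoidan replicate 2 and fucoidan replicate 3. Among the 15 B cell markers 13 were lower (median log2 fold change -0.68), and 6 without fucoidan replicate 3. The IgE receptor gene Fcer2a (CD23) went from 376 ± 76.3 to 169 ± 25.5 CPM, the inhibitory receptor gene Cd22 from 544 ± 59.9 to 297 ± 45.4 CPM, and Ralgps2 from 307 ± 41.0 to 168 ± 11.1 CPM. All 15 natural killer cell markers rose (median log2 fold change 1.10), such as Prf1, which encodes perforin (49.9 ± 4.96 to 112 ± 30.8 CPM), and the receptors Klrk1 and Klre1. Of these 11 rose without fucoidan replicate 1, 12 without fucoidan replicate 2 or 3 or with no filter on low counts, and at least 13 otherwise. Of 12 classical monocyte markers 2 fell, among them Fn1 (fibronectin), and 0 rose (1 fell when saline replicate 4 or either of fucoidan replicates 2 and 3 was left out), and of 12 neutrophil markers 0 passed. Without saline replicate 1 there were 2 neutrophil markers and 1 monocyte marker that rose, and with limma-voom 3 and 1. The summed levels of T cell markers were 1540 to 1976 CPM after saline and 2203 to 2766 CPM after fucoidan, and those of B cell markers 5812 to 7499 CPM and 3509 to 5024 CPM, without overlap in either case. What these shifts contributed to the levels of Gimap genes was not tested.

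Genes of naive and resting T cells were mixed. Of 12 such genes Il7r, the receptor for the survival cytokine interleukin 7, rose (156 to 265 CPM) and 3 fell, among them the lymph node homing receptor Ccr7 (490.5 to 269.7 CPM) and the egress receptor S1pr1 (202 to 137 CPM). B cells also express Ccr7 and S1pr1. On leaving out a library the number that fell was between 1 and 4, and it was 1 when saline replicate 4, or either of fucoidan replicates 2 and 3, was left out. Tcf7 and Lef1, transcription factors of naive T cells, had log2 fold changes of 0.14 and 0.05 (edgeR adjusted p = 0.427 and 0.795).

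Set against shared T cell genes, 4 of 8 members fell. With libraries scaled on the mean log count of the 19 shared markers, Gimap6 had a log2 fold change of -0.70 (SE 0.204, edgeR adjusted p = 0.00930), Gimap1 of -0.54 (0.0269), Gimap8 of -0.53 (0.0246) and Gimap5 of -0.44 (0.0478). Gimap3, Gimap4, Gimap7 and Gimap9 had -0.28, -0.22, -0.16 and -0.03 and did not pass. In the same fit 39.0% of all genes passed, 33.8% lower and 5.21% higher, and the median was -0.44 over all genes and -0.36 over the members. The shared T cell markers had a median log2 fold change of 0.46 with TMM scaling, so a gene without change there lies below 0 here. The falls on this scale are therefore not a separate result about the members. Gimap6 alone passed with the replicate block (1 of 8), without saline replicate 4 and without fucoidan replicate 2, and 0 of 8 passed without fucoidan replicate 3. With naive and resting T cell genes as the scale, 0 of 8 passed, the median of all genes was 0.16, and the signs of all members but Gimap6 turned positive.

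Set against B cell markers, 7 of 8 members rose, from a log2 fold change of 0.54 for Gimap8 (edgeR adjusted p = 0.0319) to 1.01 for Gimap9 (adjusted p = 0.00740), and Gimap6 had 0.36 (adjusted p = 0.0998). That share stands beside 57.9% of all genes that rose and 0.245% that fell on this scale, with a median of 0.62 over all genes and 0.71 over the members. The B cell markers had a median log2 fold change of -0.68 with TMM scaling. A gene without change under TMM scaling therefore lies above 0 here, and these rises are not a separate result about the members. With the replicate block 4 of 8 rose, and without fucoidan replicate 3 there were 3. On this scale Gimap3, Gimap4 and Gimap7 passed in all alternatives run.

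**Figure D3:**
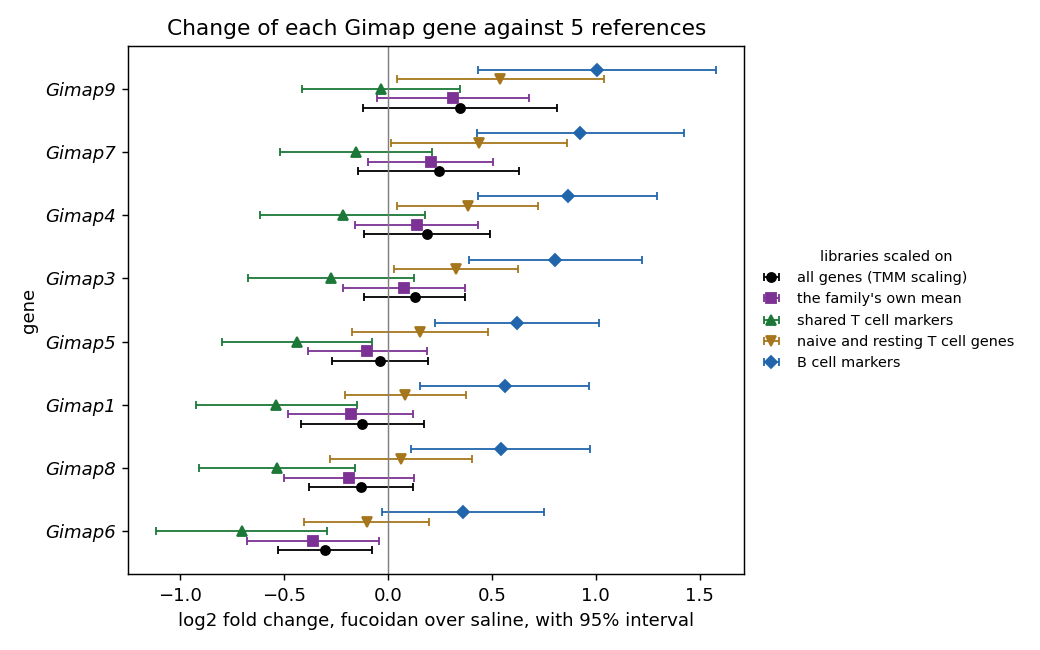
Log2 fold change of each Gimap gene, fucoidan over saline, with its 95% interval when libraries are scaled on all genes, on the family's own mean, on 19 shared T cell markers, on 12 naive and resting T cell genes or on 15 B cell markers. The estimates lie to the left against shared T cell markers, from -0.70 to -0.03, and to the right against B cell markers, from 0.36 to 1.01, with Gimap6 the lowest member on each scale.

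Endothelial cells are another known source of Gimap transcripts. Of 11 endothelial markers 6 were abundant enough to be tested. Robo4, the roundabout receptor of vessels, had 0 counts, and Cldn5, Emcn, Tek and Egfl7 had 2, 4, 5 and 22 counts over the 8 libraries together. Tie1, Esam and Vwf rose, the last from 418 to 1211 CPM, and platelets are known to carry Vwf and Esam too. The number that rose was 1 with no filter on low counts. Cdh5 and Kdr, more specific to endothelium, stood at 1.18 and 1.16 CPM after saline and 1.84 and 1.96 CPM after fucoidan. Neither passed (edgeR adjusted p = 0.317 and 0.170), nor did Pecam1 (edgeR adjusted p = 0.0872).

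Some genes of survival and autophagy rose. The list of 18 holds partners of the family, such as Gabarapl2, and other genes of these pathways, such as Atg5 and Atg7. Of the 18 genes 5 rose and 0 fell, with a median log2 fold change of 0.24. Over all genes tested 9.11% rose and 4.65% fell. Gabarapl2, the partner of GIMAP6, went from 112 ± 33.4 (SD, n = 5) to 369 ± 167 CPM (SD, n = 3; log2 1.72, SE 0.268), Gabarapl1 from 37.2 ± 9.47 to 92.7 ± 36.0 CPM, and Map1lc3b, which encodes the autophagosome marker LC3B, had a log2 fold change of 0.86. Bcl2l1, which encodes the survival protein BCL-XL, went from 67.6 ± 20.8 to 214 ± 95.8 CPM, and Bcl2l11, which encodes the death-promoting BIM, from 62.7 ± 10.3 to 95.8 ± 2.54 CPM. These rises stood beside haemoglobin shares of 13.5% or more in the same libraries, and maturing red cells and platelets express Bcl2l1 and autophagy genes. What red cells contributed to them was not tested. Gsk3b, a kinase that GIMAP5 restrains in mouse T cells, had a log2 fold change of 0.52 (edgeR adjusted p = 0.0634). Bcl2 had 0.20 (adjusted p = 0.435) and Bax -0.02 (adjusted p = 0.952).

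Neighbours of the cluster gave no call either. Of the rows inside the span, Gimap1os, antisense to Gimap1, stood at 7.23 ± 2.01 CPM (SD, n = 5) and 8.40 ± 1.16 CPM (SD, n = 3), and Gm28053 at 3.21 ± 0.917 and 2.74 ± 1.07 CPM, while Gm44226 and 4833403J16Rik had log2 fold changes of 0.01 and 0.03. Gm44262 had 4 counts in all and was not tested. On the low side Repin1, Zfp775 and AI854703 had 0.26, 0.11 and 0.71, and on the high side Tmem176b, Tmem176a and Gpnmb had -0.09, 0.01 and 0.57. The lowest edgeR adjusted p among these 10 tested neighbours was 0.263, for AI854703. Tmem176b and Tmem176a, a pair of membrane proteins of myeloid cells, were highest in saline replicate 1 (75.1 and 38.1 CPM), the library in which Gimap1, Gimap7 and Gimap9 were the highest of the saline group.

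**Figure D4:**
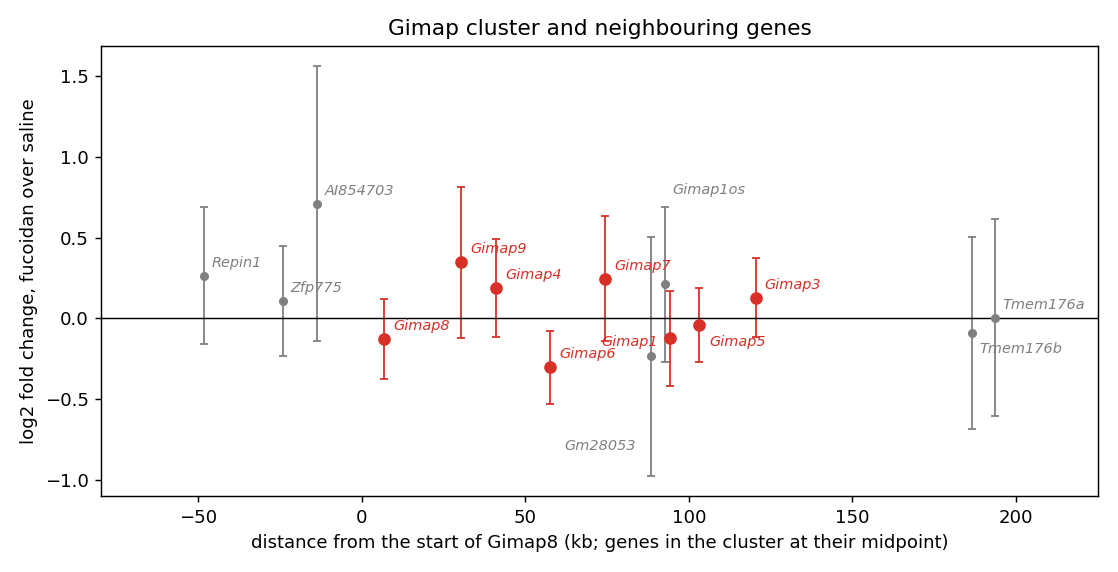
Log2 fold change, fucoidan over saline, with its 95% interval for the Gimap genes (red) and for Gimap1os, Gm28053 and flanking coding genes within 100 kb (grey), by distance in kb from the start of Gimap8 (flanking genes at their nearer end). Every interval but that of Gimap6, at -0.30, spans 0, and neighbouring members lie on both sides of 0.

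Of 8398 protein-coding genes outside the family with a mean of at least 10 CPM, the profile nearest to the family's mean over the 8 libraries was that of Sprtn, a DNA repair protease, with a root mean square difference of 0.0419 on the log2 scale. Among the next nearest were Ggps1, Nde1 and Cd96, at 0.0425 to 0.0473. Cd96 is an adhesion receptor of T and natural killer cells, and Ggps1 makes geranylgeranyl diphosphate. These 4 genes had log2 fold changes of 0.02 to 0.11 (edgeR adjusted p of 0.479 to 0.925). They were picked for likeness to a family mean that hardly differed between the groups, so such small changes follow from the choice.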

How the data were processed

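Poly(A) libraries were read as pairs. Raw gene counts were deposited by the authors with gene names, GRCm39 coordinates and lengths. Per the submitters' processing notes, cutadapt 4.0, Trimmomatic 0.39 and HISAT2 2.2.1 were used. The sources used here give no counting program, annotation release or strand setting. Groups follow the titles, as the protocol text of fucoidan samples names saline.

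Genes passing filterByExpr (14723) were tested with edgeR 4.0.16 in R 4.3.3 (TMM, robust quasi-likelihood test, Benjamini-Hochberg adjustment over all genes, threshold 0.05). SE is the absolute log2 fold change over the square root of F, and 95% intervals are unadjusted. Centred log2 profiles used a prior count of 2. Scaling on a list set library sizes by its mean log count; the B cell scale was added after the table was opened. Alternatives used DESeq2 1.42.0, limma 3.58.1, other scaling factors and filters, and each library left out. The procedure was tested on simulated data.

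Members and lists were chosen with earlier results of these data known. Named besides the members were genes in or beside the cluster, genes among the 5 nearest profiles and, of each list, genes among the 3 with the smallest p; S1pr1, Tcf7, Lef1, Cdh5, Kdr, Map1lc3b, Bcl2l11, Gsk3b, Bcl2, Bax and the untested endothelial markers were chosen after their values were seen. Some genes that this rule names are not reported here. Libraries correlated at 0.947 to 0.986, with no duplicates. With group means removed, libraries sharing a replicate number correlated at 0.177, 0.233 and 0.144, and those with different numbers at -0.261 to 0.144. The labels do not say what the numbers share. The tests reported are without a block, and a replicate block was fitted as an alternative. Saline replicates 4 and 5 have no fucoidan library of the same number. Under the block they therefore added nothing to the estimate of the group difference, and its calls rest on fewer libraries. Beyond the titles nothing says that libraries are separate animals, so p-values measure the spread between these libraries.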

Additional observations from a re-analysis of the deposited data

How the results depend on the processing

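No Gimap gene rose in any of the 16 alternatives to the comparison with saline, and 1 fell, Gimap6, with upper quartile factors, DESeq2 and limma-voom (1, 1 and 1 member), while 0 fell under the others, the replicate block and each library left out included. Counts over all genes moved more: with the replicate block 439 genes were lower, and 1063 with limma-voom, against 684, and on leaving out 1 library 182 to 856 were lower and 746 to 1368 higher, against 1341. Relative to shared T cell genes 4 members were lower; with the replicate block there was 1, with naive and resting T cell genes 0, and on leaving out 1 library 0 to 4. Relative to B cell markers 7 were higher, 4 with the replicate block and 3 to 7 on leaving out 1 library. Relative to the family's mean no member passed under any alternative. All counts with the replicate block rest on fewer libraries, as saline replicates 4 and 5 have no fucoidan library of their number. Some estimates near 0 changed sign without a call. On leaving out 1 library Gimap5 ranged from -0.0961 to 0.0200, above 0 without saline replicate 2 or fucoidan replicate 2 (0.00779), and Gimap9 relative to T cell genes from -0.14 to 0.12, above 0 without saline replicate 1 or fucoidan replicate 3 (0.0361). Larger changes of sign came with the naive and resting T cell scale. There Gimap1, Gimap3, Gimap4, Gimap5, Gimap7, Gimap8 and Gimap9 stood at 0.0837, 0.33, 0.38, 0.15, 0.44, 0.0631 and 0.54. Gimap1, Gimap8 and Gimap5 among them had been called lower on the shared T cell scale, at -0.54, -0.53 and -0.44. The median of all genes was -0.44 on the shared T cell scale and 0.16 on the naive and resting one. The cause of these changes was not tested. The members had at least 521 counts in each library, while the number of libraries limits what fold change can be told from none.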
